A study of Mus musculus with 12 samples.

Results

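Matrix metalloproteinases (MMPs) are zinc-dependent enzymes that cut collagen, elastin and other extracellular matrix proteins, and many are made as inactive precursors. ADAMs are related membrane enzymes that cut other proteins off the cell surface, a process called shedding, and TIMPs are secreted proteins that bind and block the active enzymes. Macrophages make several of them, and in atherosclerotic plaques macrophage MMPs are known for their link to thinning of the collagen cap.

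The genes described here are 6 MMPs (Mmp8, Mmp9, Mmp12, Mmp13, Mmp14 and Mmp19), 2 TIMPs (Timp1 and Timp2) and 2 ADAMs (Adam8 and Adam17). They were chosen by name, with earlier results of these data known, and make 10 of the 43626 genes in the count files. Of the genes in the files, 42462 could be named. The 10 genes were measured by RNA-Seq in 12 libraries of mouse bone marrow–derived macrophages (BMDMs), with 3 libraries in each of 4 conditions. BMDMs received PBS, the human milk oligosaccharide 3′-sialyllactose (3′SL, which the labels call HMO), the Toll-like receptor 4 activator lipopolysaccharide (LPS), or LPS and 3′SL together. In the published text of the study, the incubation lasted 6 hours, the dose of LPS was 10 ng/mL and that of 3′SL 100 μg/mL. The treatment protocol in the labels describes injections of mice instead, so doses and hours were taken from that text. The sources used here do not give the strain, age or number of the marrow donors, or whether the 3 libraries of a condition came from separate animals, so p-values measure the spread between these libraries.

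The libraries held between 20411741 and 26851890 reads on genes, and all 10 genes passed the filter on low counts that left 14308 genes to test; the lowest of their counts was 88, for Timp1. All 10 macrophage markers examined had reads, with summed levels of 18328 to 31199 CPM (counts per 1e6 counted reads) over the libraries. Clustering by what remained after subtracting each condition's mean placed the libraries in 3 sets of 4 that held every condition once. Residuals correlated at a mean r of 0.570 within sets and −0.337 between them. The sets were found in the data, and they coincide with the running numbers in the sample titles, 1 to 4, 5 to 8 and 9 to 12, each run of which holds every condition once. The labels do not say what a run of numbers stands for, and the cells' source cannot be told apart from other differences between the sets. Set 3 differed most from the others: between libraries of 1 condition, chi-square per gene was 65.3 to 115 for pairs with set 3 and 15.6 to 20.3 for sets 1 and 2. Calls were therefore also read without set 3, a choice made after seeing the data that leaves 2 libraries per condition. Set 1 stood apart in 13 stromal cell markers, whose CPM summed to between 879 and 1049 there, 37.7 to 109 in set 2 and 99.4 to 204 in set 3. Dendritic cell and lymphocyte markers summed to at most 16.2 and 0.921 CPM. In the following, values are given in the order of sets 1, 2 and 3, and levels are CPM on library sizes scaled by TMM (trimmed mean of M values). In bulk RNA a lower level can come from fewer cells of a type or from less RNA per cell, which cannot be told apart.

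Stretches of promoter sequence are shown for 3 of the metalloproteinases: Mmp13 and Mmp14, which had the largest changes with LPS of the 10 genes, and Mmp12, the macrophage elastase, as a neighbour of Mmp13 on chromosome 9. Each is the 120 bases before a RefSeq transcription start in GRCm38.p6, on the plus strand, which is the coding strand of all 3 genes. Capitals mark matches, on either strand, to the AP-1 motif (TGANTCA), the PEA3-type ETS motif (AGGAAG), the TATA box (TATAAA) or the NF-κB consensus.

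Mmp13, chr9:7272394-7272513: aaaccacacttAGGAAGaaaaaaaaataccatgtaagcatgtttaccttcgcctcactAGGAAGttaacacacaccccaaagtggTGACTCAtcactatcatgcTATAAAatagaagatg
Mmp12, second start, chr9:7347254-7347373: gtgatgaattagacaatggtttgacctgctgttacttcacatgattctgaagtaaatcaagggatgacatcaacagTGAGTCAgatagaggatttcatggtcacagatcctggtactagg
Mmp14, chr14:54431478-54431597: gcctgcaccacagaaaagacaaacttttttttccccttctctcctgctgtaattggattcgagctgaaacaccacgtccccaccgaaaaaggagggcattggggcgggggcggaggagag

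The Mmp13 stretch held an AP-1 match at −35 to −29 from the start, 2 ETS matches, and a TATA box at −16 to −11. The second Mmp12 start had an AP-1 match at −44 to −38, whereas the first Mmp12 start, which is not shown, had no AP-1 match but an NF-κB match at −129 to −120 and an ETS match at −87 to −82, and the Mmp14 stretch, in which 65 of 120 bases were G or C against 45 in Mmp13, held none of the 4 motifs. Upstream of the stretch shown, Mmp14 had an ETS match at −209 to −204. RefSeq promoters were matched for 8 of the 10 genes, with 9 starts, and not for Mmp9 and Mmp19. Over the full 250 bases before each of these 9 starts, AP-1 was found in 2, ETS in 6, TATA in 1 and the NF-κB consensus in 1, the first Mmp12 start. The same windows of 32851 RefSeq starts held these motifs in 6.75%, 29.5%, 12.4% and 7.25% of cases. A match is a description of the letters, and no binding was measured here.

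To compare genes with each other, CPM were divided by the length of all exons of a gene in kilobases. In PBS-treated BMDMs, Adam8, an ADAM of myeloid cells, had the highest mean, with 529 CPM per kb (425 to 707 over the libraries). Mmp12 followed with 107, and Timp2, an inhibitor of most MMPs, with 87.7. Adam17 had 31.2 CPM per kb, and Timp1, Mmp19 and Mmp13 followed with 26.8, 23.5 and 22.6. Mmp13 and Mmp19 overlapped in their libraries, and Timp1, which ranged from 3.48 to 65.0, overlapped with most of them. Mmp9 and Mmp8 had 10.8 and 10.5, also overlapping, and Mmp14 was lowest with 2.12. With LPS, Mmp13 ranked first with 1022 CPM per kb (546 to 1882), above Adam8 with 332, and Mmp14 had 102, within the range of Adam17. In the LPS+3′SL libraries Adam8 at 520 and Mmp13 at 496 overlapped, and with 3′SL alone the order of the 3 highest genes was that of PBS.

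**Figure D1:**
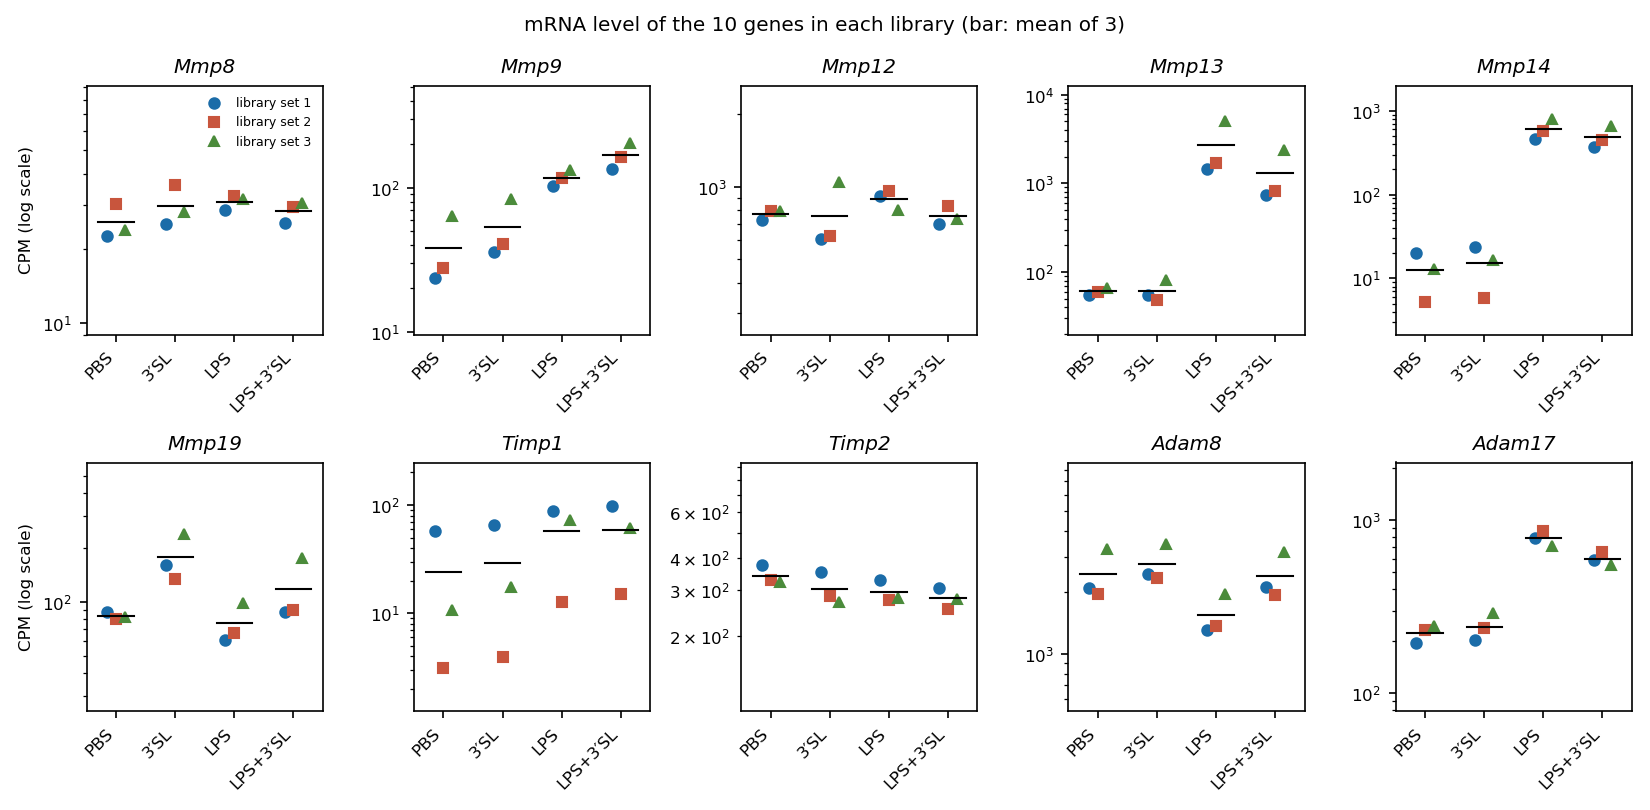
Level of each of the 10 genes in each library, in CPM on a log axis that differs between panels; points are libraries, shapes and colors are the 3 library sets, and the black bar is the mean of the 3 libraries of a condition. Mmp13 and Mmp14 rose from means of 60.4 and 12.6 CPM with PBS to 2732 and 610 with LPS, whereas Timp1 differed more between the sets than between the conditions.

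The first comparison asked how the inflammatory stimulus changed these genes in cells without 3′SL. LPS raised Mmp13, Mmp14, Adam17 and Mmp9, and no member passed the test for a lower level in edgeR or DESeq2; 1, Adam8, was lower at an unadjusted p under 0.05. A gene was called when its Benjamini-Hochberg adjusted p in edgeR's quasi-likelihood test was under 0.05 over the 14308 genes and its change was at least 1.5-fold. Of all genes, 18.3% were called higher and 20.2% lower, against 4 and 0 of the 10 members. For any comparison, the share of all genes with an unadjusted p under 0.05 was not counted. Nor was the share whose LPS and PBS libraries did not overlap. Counts at that p and such separations are therefore descriptions and no result about the members or lists. The members' median log2 change was 0.78, compared with −0.06 over all genes. The members and lists were chosen with earlier results of these data known, so contrasts of their counts or medians with all genes are descriptions.

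Mmp13, collagenase 3 (chromosome 9, 7272514 to 7283331, plus strand), cleaves fibrillar collagens. Its level was 55.4, 59.3 and 66.3 CPM with PBS and 1460, 1706 and 5031 with LPS. All LPS libraries lay far above all PBS libraries, and the LPS library of set 3 was higher than those of sets 1 and 2. The log2 fold change was 5.50 ± 0.63 (SE, n = 3 per condition, edgeR adjusted p = 4.71e-05), a 45.3-fold rise, which was 26.4-, 28.8- and 75.8-fold within the sets.

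Mmp14, or MT1-MMP (chromosome 14, 54431612 to 54445364, plus strand), is a membrane-bound collagenase that activates the MMP2 precursor. It stood at 19.8, 5.30 and 12.8 CPM with PBS and at 464, 574 and 791 with LPS. The ratio of LPS to PBS in each set was 23.4, 108 and 61.9, and the smallest was in set 1, whose PBS library was the highest. The fitted log2 change was 5.59 ± 0.62 (edgeR adjusted p = 3.56e-05), or 48.1-fold. Stromal cells also express Mmp14. In the PBS libraries it was highest in set 1 and lowest in set 2, as was the summed level of the stromal markers. The part of stromal cells in the Mmp14 level with PBS was not tested. Without the 4 libraries of set 1, the change was 6.24 (adjusted p = 0.00105).

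Mmp9, gelatinase B (chromosome 2, 164940780 to 164955850, plus strand), cuts denatured collagen and basement membrane collagen. Its CPM were 23.8, 27.6 and 63.5 with PBS and 103, 117 and 133 with LPS. The conditions did not overlap, although the PBS library of set 3 held more than the other PBS libraries. Mmp9 rose 3.06-fold (log2 change 1.61 ± 0.40, edgeR adjusted p = 0.00663). Neutrophils also make MMP9 and MMP8, and the 11 neutrophil markers summed to 164 to 579 CPM in the PBS libraries and 448 to 1571 in the LPS libraries. A large part of the difference was 1 gene, Csf3r, whose mean went from 24.7 to 356 CPM. Fitted levels were higher for 8 of the 11 and lower for 3, with a median log2 change of 0.87 against −0.06 over all genes. Mean S100a9 went from 94.4 to 173 CPM and mean Ltf from 66.9 to 125, whereas mean Retnlg went from 4.03 to 1.56 CPM. Only 1 of the 11 was called higher, and none of them was at 0 in every library. Markers of osteoclasts, cells that also express Mmp9 and Mmp14, summed to 16.8 to 30.2 CPM with PBS and 109 to 198 with LPS. Most of that sum with LPS was Acp5, whose mean went from 13.3 to 144 CPM. Mean Ctsk went up, from 5.05 to 6.87 CPM. The means of Ocstamp and Dcstamp went down, from 1.15 to 0.69 and from 1.72 to 1.32 CPM. Of 4 tested, 1 was called higher, and 2 had a higher and 2 a lower fitted level, with a median log2 change of 0.03. The part of neutrophils and osteoclasts in the Mmp9 result was not tested.

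Mmp8, the neutrophil collagenase (chromosome 9, 7558456 to 7568485, plus strand), did not pass the test. Its levels were 22.5, 30.4 and 23.8 CPM with PBS and 28.6, 32.8 and 31.7 with LPS, with overlapping conditions (log2 change 0.28 ± 0.16, edgeR adjusted p = 0.177).

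Adam17, also known as TACE (chromosome 12, 21323509 to 21373632, minus strand), releases TNF, TNF receptors and other proteins from the membrane. Its level with PBS was 196, 230 and 243 CPM, and with LPS 783, 862 and 709 CPM. LPS raised it in every set, by 4.00-, 3.75- and 2.92-fold, and the spread within each condition was small beside this difference. The log2 change was 1.82 ± 0.15 (edgeR adjusted p = 6.19e-06), or 3.52-fold. Adam17 overlaps an exon of Iah1 on the other strand, with 4.83% of its 50-base stretches shared with that gene. Iah1 had 328 to 543 counts per library, and the part of the overlap in the Adam17 counts was not tested.

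Adam8 (chromosome 7, 139978932 to 139992562, minus strand) sheds adhesion molecules of leukocytes. It had 2108, 1972 and 3280 CPM with PBS and 1306, 1364 and 1956 with LPS. Every LPS library was lower than every PBS library, at 61.9%, 69.2% and 59.6% of the PBS level of its set. How many of all genes were separated in this way was not counted. The difference missed the threshold in the fit without sets (log2 change −0.67 ± 0.27, edgeR adjusted p = 0.0665) and passed it with the sets as a block (−0.66 ± 0.08, adjusted p = 1.58e-05), where 24% of all genes were called lower. Without set 3 it was called too (−0.60, adjusted p = 0.000531), with 20.8% of all genes lower. It also passed when the set 3 library of 3′SL, LPS or LPS+3′SL was left out.

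Mmp12, macrophage elastase (chromosome 9, 7344381 to 7369499, plus strand), was abundant in all conditions. Its level was 731, 792 and 791 CPM with PBS and 912, 964 and 801 with LPS. The LPS libraries were higher than the PBS libraries, a separation not counted over all genes. The fitted change was 1.16-fold, and the test did not call this difference (log2 change 0.21 ± 0.20, edgeR adjusted p = 0.415). Mmp19 (chromosome 10, 128790910 to 128800824, plus strand), an MMP with basement membrane substrates, had 87.2, 79.8 and 81.9 CPM with PBS and 61.2, 67.0 and 98.6 with LPS, and was not called (log2 change −0.13 ± 0.30, adjusted p = 0.753). Under total counts in place of TMM, which shifted the median gene to −0.71, Mmp8 and Mmp12 changed sign, and Mmp19, Timp2 and Adam8 were called lower, along with 46.5% of all genes.

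The inhibitors did not pass the test. Timp2 (chromosome 11, 118301069 to 118355740, minus strand), which besides inhibiting MMPs helps MMP14 to activate the MMP2 precursor, had 374, 328 and 323 CPM with PBS and 328, 274 and 280 with LPS (log2 change −0.22 ± 0.13, edgeR adjusted p = 0.205). Timp1 (chromosome X, 20870166 to 20874735, plus strand), an inhibitor of secreted MMPs, had 57.7, 3.09 and 10.6 CPM with PBS and 87.5, 12.7 and 72.9 with LPS. Its LPS library was the higher in each set, by 1.52-, 4.13- and 6.86-fold, but the sets differed more than the conditions, and the change had a large error (log2 change 1.27 ± 1.17, edgeR adjusted p = 0.409). With the sets as a block Timp1 was called (1.73 ± 0.36, adjusted p = 0.00129), with 20.5% of all genes called higher. Timp1 was highest in set 1 and lowest in set 2 in every condition. The summed level of the 13 stromal markers was also highest in set 1 and lowest in set 2. The stromal markers moved with LPS in the same direction as Timp1: all 11 tested had a higher fitted level, with a median log2 change of 0.41 against −0.06 over all genes, and their medians within the sets were 0.33, 0.98 and 0.60. None was called in edgeR or DESeq2 or had an unadjusted p under 0.05 in edgeR, and with the sets as a block, the fit that called Timp1, 6 of the 11 were called higher and none lower. The part of stromal cells in the Timp1 level was not tested.

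**Figure D2:**
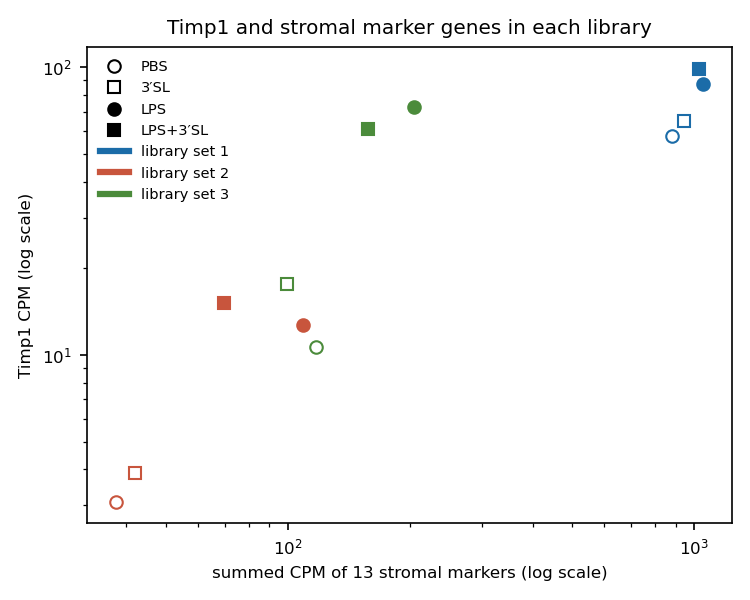
Timp1 level against the summed level of 13 stromal cell markers in the 12 libraries, both in CPM on log axes; color gives the library set, shape and fill the condition. The 4 libraries of set 1 lie at the upper right, with marker sums from 879 to 1049 CPM, and those of set 2 at the lower left, from 37.7 to 109 CPM.

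Other genes of the pathway were read from lists of relatives and partners of these enzymes. Of 17 other MMPs, 8 were expressed enough to test and 2 were called higher with LPS, Mmp25, a membrane-anchored MMP of leukocytes (log2 change 5.80 ± 0.61, edgeR adjusted p = 2.53e-05), and Mmp28 (3.63 ± 0.79, adjusted p = 0.00323). Both had low levels, with 13.7 to 33.0 CPM for Mmp25 and 0.684 to 2.09 CPM for Mmp28 in the LPS libraries. Neither Timp3 nor Reck, the other inhibitors tested, was called. Of 7 other ADAMs tested, Adam33 and Adam9 were higher, with log2 changes of 1.99 and 0.66. Adam10, the closest relative of Adam17, was lower (−0.65 ± 0.11, edgeR adjusted p = 0.00054). Among 10 ADAMTS enzymes tested, which are secreted and act on matrix proteoglycans and other targets, the aggrecanase Adamts4 rose (3.97 ± 0.87, adjusted p = 0.00333) and Adamts10 fell (−1.65 ± 0.14, adjusted p = 5.07e-06).

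The partners that mature Adam17 were measured as well. Rhbdf2, or iRhom2, which carries ADAM17 to the cell surface in myeloid cells, rose with LPS from 56.7 ± 24.0 to 412 ± 111 CPM (SD, n = 3), a log2 change of 2.86 ± 0.45 (edgeR adjusted p = 0.000386). Tspan33 and Tspan14, tetraspanins that guide ADAM10, were lower, with log2 changes of −1.30 and −1.06. Both tested proprotein convertases, which remove the inhibitory prodomain of MMP14 and ADAMs, were higher, Pcsk7 by 1.45 and Furin by 1.07. Of 15 tested proteins that ADAM17 or ADAM10 shed, 9 were called higher and 1 lower, among them Tnf with a log2 change of 5.25 and Tnfrsf1b with 3.65, and Cd163 was the lower one (−0.91). The median of the 15, from a list chosen with earlier results of these data known, was 1.24, compared with −0.06 over all genes.

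The LPS response was then read in cells that also had 3′SL, by comparing LPS+3′SL with 3′SL alone. Mmp14, Mmp13, Mmp9 and Adam17 were called higher, and none of the members was called lower in edgeR or DESeq2 or had an unadjusted p under 0.05 in that direction, where 14.3% of all genes were called higher and 14.8% lower. The log2 changes were 5.00 ± 0.60 for Mmp14, 4.43 ± 0.60 for Mmp13, 1.66 ± 0.40 for Mmp9 and 1.30 ± 0.15 for Adam17, the highest edgeR adjusted p being 0.00758 (Mmp9). With the sets as a block Timp1 was also higher (1.40 ± 0.35, adjusted p = 0.00559) and Mmp19 lower (−0.62 ± 0.17, adjusted p = 0.0088), where 16.4% and 19.4% of all genes were called. Of the pathway lists, this comparison also called Adam22 (−0.95) and Hbegf (2.17), which had not been called between LPS and PBS. From PBS to LPS their means moved in the same directions, from 1.89 to 1.19 CPM for Adam22 and from 4.83 to 17.3 for Hbegf.

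**Figure D3:**
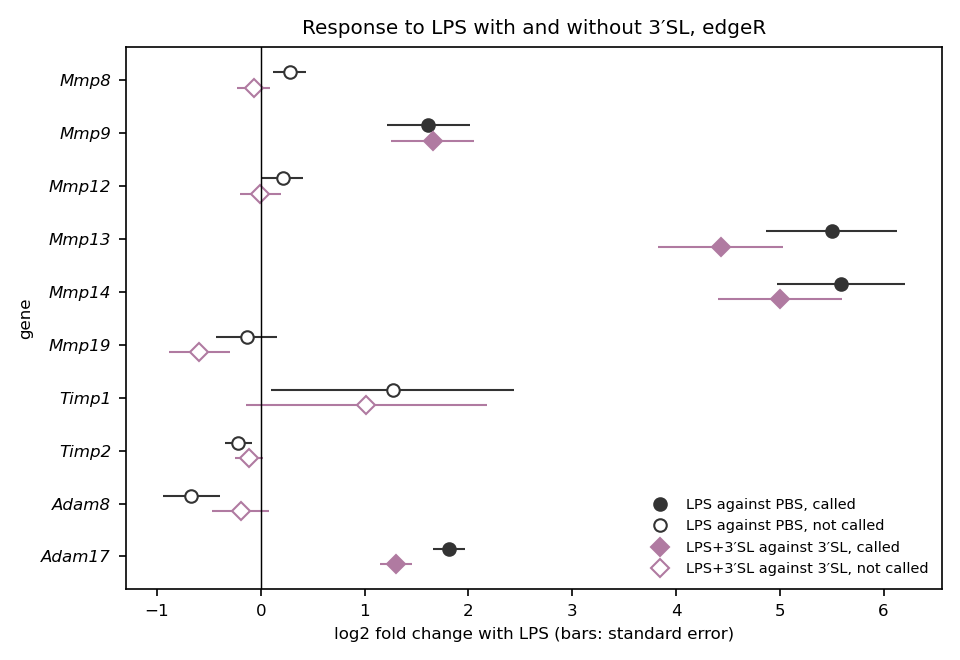
Fitted log2 fold change with LPS for the 10 genes, without 3′SL (circles) and with 3′SL (diamonds), with standard errors; filled symbols passed an adjusted p of 0.05 and 1.5-fold. In both comparisons Mmp9, Mmp13, Mmp14 and Adam17 are filled, with Mmp13 at 5.50 and 4.43 and Adam17 at 1.82 and 1.30.

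The next question was what 3′SL did to these genes in cells without LPS. In edgeR no member was called, nor was any of the 14308 genes (0%), and 1 member had an unadjusted p under 0.05. DESeq2 called 1 member, as did edgeR with the library sets as a block, where 0.615% and 2.84% of all genes were called. That member was Mmp19 in both. Its level was 87.2, 79.8 and 81.9 CPM with PBS and 160, 134 and 238 CPM with 3′SL. All 3′SL libraries lay above all PBS libraries, which in this comparison 9.02% of genes did upward and 8.53% downward. The ratio was 1.83, 1.68 and 2.91 in the sets, and the fitted change was 2.14-fold (log2 change 1.10 ± 0.30, unadjusted p = 0.00373, edgeR adjusted p = 0.327). The adjusted p was 0.0475 in DESeq2 and 0.00954 with the block. Without set 3, whose ratio was the largest, Mmp19 was called at a log2 change of 0.80 (edgeR adjusted p = 0.0179), as were 0.604% of all genes. With 3 libraries against 3, the smallest p an exact permutation test can give is 0.1.

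Mmp19 shares 24.7% of its 50-base stretches with Tmem198b, which overlaps it on the other strand. Tmem198b had 6.45 to 10.3 CPM with PBS and 8.87 to 11.8 CPM with 3′SL. The strand setting of the counting is not given in the sources used here. Reads of the overlap may therefore have been counted for 1 of these genes or left out as ambiguous. The remaining 9 members had log2 changes between −0.18 (Timp2) and 0.47 (Mmp9) with 3′SL, and their libraries overlapped between the conditions. Mmp9 was higher with 3′SL in each set, by 1.51-, 1.46- and 1.31-fold, which did not pass any of the tests (edgeR adjusted p = 0.744, and 0.134 with the block). None of the 51 genes tested in the pathway lists was called in edgeR or DESeq2, and 1 had an unadjusted p under 0.05 in edgeR. With the block 2 were called, Rhbdf2 (log2 change 0.64 ± 0.13, adjusted p = 0.0232) and Notch1, a receptor that ADAM10 and ADAM17 cut (0.78 ± 0.13, adjusted p = 0.00998).

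With LPS present, the comparison of LPS+3′SL with LPS alone asked which of the LPS-induced levels 3′SL altered. EdgeR called no member and none of all genes (0%), DESeq2 called no member and 0.79% of all genes, and edgeR with the sets as a block called 1 member, Adam8, and 1.45% of all genes. In edgeR 2 members, Adam17 and Adam8, had an unadjusted p under 0.05, a cut for which the share of all genes was not counted. LPS libraries are shared between this comparison and that of LPS with PBS, and opposite signs in them are therefore not independent.

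Adam8, at 1306, 1364 and 1956 CPM with LPS, stood at 2133, 1943 and 3165 CPM with LPS+3′SL. The level was 1.63-, 1.42- and 1.62-fold that of the LPS library of the same set in every set. The conditions overlapped, because the set 3 LPS library exceeded the set 2 LPS+3′SL library. The log2 change was 0.65 ± 0.27 without the block (unadjusted p = 0.0381, edgeR adjusted p = 0.672) and 0.64 ± 0.08 with it (adjusted p = 0.0019). Without set 3 it was 0.62 and was called (adjusted p = 0.0226), as were 1.04% of all genes. Gm16201, which overlaps Adam8 on the other strand, had at most 240 counts in a library, and the part of the overlap in the Adam8 counts was not tested.

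Mmp13 was lower with LPS+3′SL in every set, at 745, 830 and 2405 CPM against 1460, 1706 and 5031 CPM with LPS alone. These were 51.0%, 48.7% and 47.8% of the LPS levels, a share that differed little between sets although the LPS level itself was far higher in set 3. Without the block the change was not called (log2 change −1.04 ± 0.53, edgeR adjusted p = 0.784), and with the block it missed the threshold (−1.03 ± 0.26, adjusted p = 0.0688). With the block and total counts it passed (adjusted p = 0.047), as did 1.52% of all genes, and without set 3 it passed as well (−0.997, adjusted p = 0.0119). Without set 1 it did not (−1.06, adjusted p = 1).

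Adam17 had 587, 652 and 553 CPM with LPS+3′SL against 783, 862 and 709 with LPS. The LPS+3′SL libraries, which were lower than all LPS libraries, had 75.0%, 75.6% and 78.0% of the LPS level of their set. Of all genes, 6.5% likewise lay lower without overlap and 6.24% higher. The log2 change of −0.39 ± 0.15 had an unadjusted p of 0.0241 and an edgeR adjusted p of 0.586 (0.133 with the block).

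Mmp9 was the member whose LPS+3′SL libraries all lay above the LPS libraries, at 134, 165 and 203 CPM against 103, 117 and 133, but it was not called (log2 change 0.51 ± 0.39, edgeR adjusted p = 0.983). Mmp19 had 88.1, 89.8 and 175 CPM with LPS+3′SL against 61.2, 67.0 and 98.6 with LPS, 1.44-, 1.34- and 1.78-fold in the sets (log2 change 0.64 ± 0.30, adjusted p = 0.74, and 0.0958 with the block). Mmp14 was at 79.5%, 78.4% and 82.3% of the LPS level in the sets (−0.32 ± 0.50, adjusted p = 1). Mmp8, Mmp12, Timp1 and Timp2 had log2 changes between −0.24 and 0.02 and were not called. Of the pathway lists, edgeR and DESeq2 called none of 51 genes and 2 had an unadjusted p under 0.05 in edgeR, while the block called Tnfrsf1b, a TNF receptor shed by ADAM17, lower (−0.62 ± 0.12, adjusted p = 0.0262). Tnf itself, the best known substrate of ADAM17, was at 459 ± 46.7 CPM with LPS+3′SL and 938 ± 308 CPM with LPS (SD, n = 3), a difference that was not called (log2 change −1.03 ± 0.57, edgeR adjusted p = 0.833, and 0.302 with the block).

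**Figure D4:**
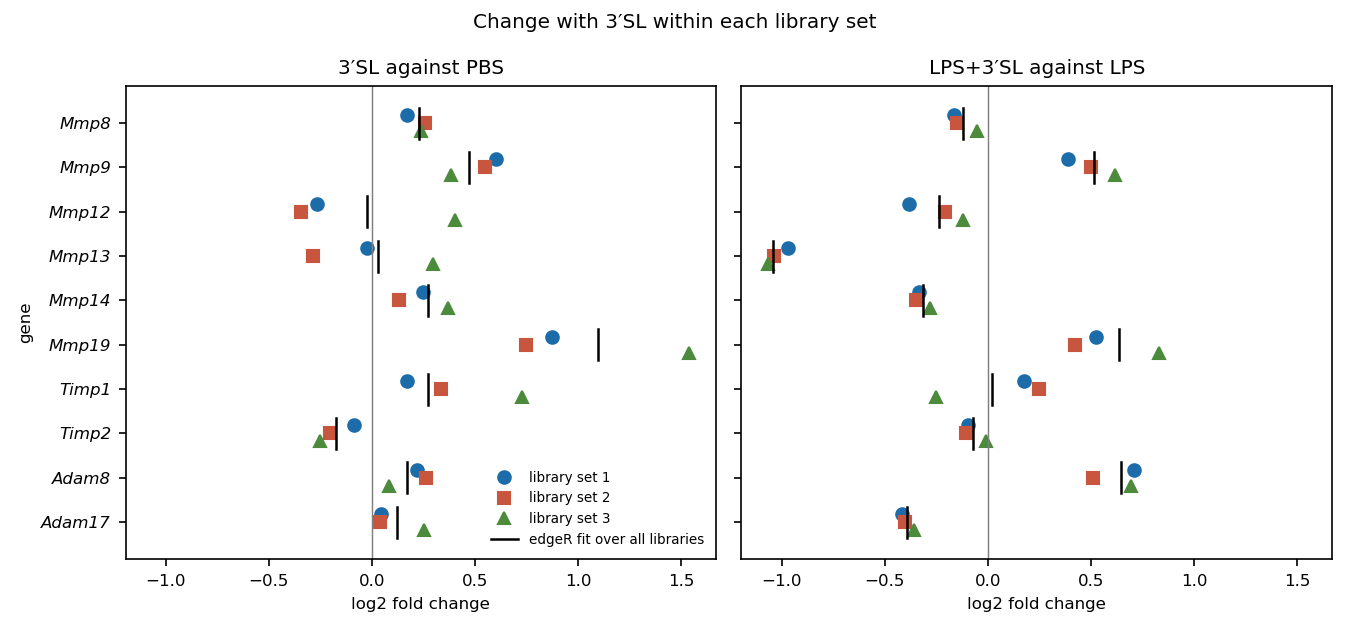
Change of each gene with 3′SL within each library set (points), on a log2 scale, without LPS at left and with LPS at right; the black line is the edgeR fit over all libraries. Mmp19 lies at 0.75 to 1.54 without LPS, and with LPS the 3 points of Mmp13 lie between −1.06 and −0.97, those of Adam17 between −0.42 and −0.36 and those of Adam8 between 0.51 and 0.71.

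Whether 3′SL acted differently with and without LPS was tested as the interaction of both treatments. EdgeR called no member and none of all genes (0%), and 1 member, Adam17, had an unadjusted p under 0.05. DESeq2 called no member, and with the sets as a block 1.55% of all genes were called and none of the members. Of the 51 pathway genes edgeR and DESeq2 called none, 2 had an unadjusted p under 0.05 in edgeR, and the block called 3, Tnfrsf1b (−0.96 ± 0.17, adjusted p = 0.024), Notch1 (−0.90 ± 0.18, adjusted p = 0.0307) and Rhbdf2 (−0.85 ± 0.19, adjusted p = 0.0478). Adam17 had an interaction of −0.51 ± 0.21 on the log2 scale (unadjusted p = 0.0343, edgeR adjusted p = 0.778). That of Mmp13 was −1.07 ± 0.74 (adjusted p = 0.869) and that of Adam8 0.48 ± 0.39 (adjusted p = 0.898, and 0.0625 with the block).

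The genes whose levels followed those of the LPS-induced members most closely over the 12 libraries were found by Pearson's r of log2 CPM, given as a description with no test, since the libraries share conditions and sets. For Mmp9 they were Gpr84 (r = 0.983) and Alox12 (0.980), and for Mmp13 Cacybp (0.997) and Zfp281 (0.996). Mmp14 was closest to Zeb1 (0.994) and Slco3a1 (0.993), and Adam17 to Mtdh (0.998) and Siglece (0.991).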

How the data were processed

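RNA-Seq libraries were made from polyA RNA with a stranded kit, and the authors deposited, per library, raw read counts per Ensembl gene. The submitters' processing notes name FastQC, Trimmomatic, STAR, HTSeq and DESeq2, without versions; the genome build, annotation release and strand setting are not given in the sources used here. The 5 lines that name no gene held 33.2% to 37.1% of each file's total and were left out. Gene positions and exon lengths came from GENCODE M21 (GRCm38), and promoters from RefSeq.

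Counts were tested with edgeR 4.0.16 in R 4.3.3 (quasi-likelihood, TMM factors of 0.700 to 1.30, filterByExpr, all 12 libraries, 1 mean per condition). Adjusted p is Benjamini-Hochberg over 14308 genes, calls needed p under 0.05 and 1.5-fold, and SE is the change divided by the root of F. Within-set changes added 0.5 counts. DESeq2 1.42.0, other scalings and filters, a block for library sets and leaving out libraries were alternatives. The tests were checked on simulated counts. No 2 libraries of a condition agreed within sampling noise (chi-square per gene 15.6 to 115, 12 pairs).

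The members, lists and the library sets were chosen with earlier results of these data known. All members were named in each comparison, of each list at most the 3 called genes with the largest LPS change in each direction and any called elsewhere, and for each member called with LPS the 2 genes of highest correlation. A gene that this rule names is not reported here.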

Additional observations from a re-analysis of the deposited data

Results flagged for a closer look

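For 3 genes the 3′SL change had one direction in all 3 library sets without LPS and the opposite direction in all 3 with LPS. The share of all genes with this pattern was not counted, so the number is a description and no result about the members. These changes rest on TMM scaling, and the pattern was not read under other scalings. The change with LPS less that without, as a mean over the sets on the log2 scale, was −0.34 for Mmp8, −0.57 for Mmp14 and −0.50 for Adam17. Within the sets Mmp8 changed by 0.17, 0.26 and 0.24 without LPS and by −0.16, −0.15 and −0.05 with LPS. Mmp14 changed by 0.25, 0.13 and 0.37 without LPS and by −0.33, −0.35 and −0.28 with LPS. For Adam17 the values were 0.04, 0.04 and 0.25 without LPS and −0.42, −0.40 and −0.36 with LPS. These patterns themselves were not tested, and the interaction term of edgeR called none of them, with adjusted p of 0.857 for Mmp8, 0.948 for Mmp14 and 0.778 for Adam17 (0.246, 0.629 and 0.157 with the sets as a block).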

How the results depend on the processing

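Mmp13, Mmp14, Mmp9 and Adam17 stayed called higher, with and without 3′SL, under all 22 other fits run, among them those without set 1 and without set 3, which were chosen after seeing the data. Unless stated otherwise, the causes of the differences below were not tested. The number of members called lower with LPS was 3 under total counts (Adam8, Mmp19 and Timp2), 1 with the sets as a block, 3 with block and total counts, 1 at unadjusted p, 1 without set 3 (Adam8), and 0 to 1 leaving out 1 library. Of all genes, 46.5%, 24% and 20.8% were called lower under total counts, with the block and without set 3. With LPS+3′SL against 3′SL the numbers of members were 3, 1, 3, 1 and 0 to 1, in the same order without the unadjusted p. The gene was Mmp19 without set 3 and without its LPS+3′SL library alone. The block called 19.4% of all genes lower there. Where no share of all genes is given for a fit, it was not counted, and the number of members is no result about them. Members called higher with 3′SL alone numbered 1 in DESeq2, 1 with the block, 1 with block and total counts, 1 at unadjusted p and 1 without set 3. With LPS+3′SL against LPS, 1 was called higher with the block, 2 with block and total counts, which also called 1 lower, and 1 at unadjusted p. Without set 3, 1 was called higher (Adam8) and 1 lower (Mmp13). The interaction gave 1 higher with block and total counts (Adam8).

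Signs turned for small changes. With LPS, Mmp8 was −0.37 under total counts and −0.37 with the block added, Mmp12 was −0.43 and −0.44, and Mmp19 was 0.036 without set 1. With 3′SL alone, Mmp12 was 0.077 without set 1, and Mmp13 was −0.074 under total counts, −0.042 with the block, −0.11 with both and −0.17 without set 3. With LPS+3′SL against LPS, Timp1 was −0.16 without set 1, and Timp2 was 0.015 under total counts and 0.017 with the block added. With LPS+3′SL against 3′SL, Mmp12 was 0.0232 with DESeq2's size factors, 0.0233 in DESeq2, 0.0035 with genes of at least 1 count, 0.012 with the block and 0.35 without set 3. The interaction of Mmp9 was −0.0062 with the block and −0.0986 without set 3, where that of Mmp12 was 0.043 and that of Timp1 0.041.

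Leaving out 1 library at a time gave, with 3′SL alone, −0.045 to 1.05 for Mmp9, −0.36 to 0.11 for Mmp12, −0.26 to 0.17 for Mmp13, −0.19 to 0.76 for Mmp14, −1.15 to 2.07 for Timp1, −0.065 to 0.44 for Adam8 and −0.061 to 0.24 for Adam17. With LPS+3′SL against LPS it gave −0.60 to 0.48 for Timp1 and −0.14 to 0.017 for Timp2. With LPS+3′SL against 3′SL it gave −0.17 to 0.10 for Mmp8, −0.14 to 0.32 for Mmp12, −0.18 to 0.012 for Timp2 and −0.44 to 0.019 for Adam8. For the interaction it gave −0.53 to 0.56 for Mmp9, −0.35 to 0.12 for Mmp12 and −2.05 to 1.17 for Timp1.

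The sets were found in the same libraries, so p-values with the block, or without a set, are those of a design that the labels do not state. With 3 libraries per condition, edgeR without the block called no gene for 3′SL, which does not show that these genes were unaffected.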
